A study of Homo sapiens with 24 samples.

Results

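The GADD45 family was taken by name as 4 genes, GADD45A, GADD45B, GADD45G and GADD45GIP1, out of the 57736 genes of the deposited RNA-seq count table. All 4 were in the table. GADD45A, GADD45B and GADD45GIP1 had enough counts to be tested, and GADD45G did not. The data came from U87-T cells, a line made from the human glioblastoma line U87 by adding a floxed TERT transgene. Per the study's methods the WT cells carry this transgene and an empty Cas9 vector, and whether the knockout clones still carried TERT when these libraries were made is not given in the sources used here. The 24 libraries form 2 series, one for DAXX and one for ATRX, of 12 libraries in 4 groups of 3: WT cells under control conditions, WT cells with etoposide, and the knockout line of that series in both conditions. The WT cells of each series have libraries of their own, so the series share no samples. Etoposide blocks topoisomerase II on DNA and leaves breaks. Its dose and time for these libraries are not given in the sources used here, and control cells are labelled as untreated.

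DAXX and ATRX form a chaperone complex for the histone variant H3.3. Each knockout is 1 single-cell clone, DAXX_KO or ATRX_KO, that had acquired features of alternative lengthening of telomeres (ALT), so the loss of the gene, the clone and the ALT-like state cannot be told apart. For DAXX_KO the titles name DAXX and 1 genotype tag names ATRX, and the titles were followed.

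GADD45A, GADD45B and GADD45G are paralogs that encode small acidic proteins without known enzyme activity. They act by binding other proteins, among them the kinase MAP3K4 at the head of the p38 and JNK stress cascades, the CDK1 and cyclin B1 pair that drives entry into mitosis, the CDK inhibitor p21 and the DNA clamp PCNA. GADD45A is a long-known target of p53, whereas GADD45B is better known for its induction by TGF-beta and NF-kappaB signalling, and both respond to genotoxic stress. GADD45GIP1 is not a paralog: its product was named for binding GADD45 proteins, and it is a component of the large subunit of the mitochondrial ribosome.

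Library totals ranged from 6928950 to 13298557 counts. The libraries were made with QuantSeq, which reads the 3′ end of polyadenylated RNA, and values are given in CPM, counts brought to a common library total after scaling with edgeR's TMM method. DAXX mRNA was 33.9 CPM in WT and 5.83 in DAXX_KO under control conditions, ATRX mRNA was 191.8 in WT and 80.6 in ATRX_KO, and ATRX mRNA was 386.2 in DAXX_KO against 228.7 in its WT. Of 7 markers of mesenchymal glioblastoma, 7 were detected in all 24 libraries, with VIM between 1190 and 5980 CPM. Under control conditions 5 of the 7 were lower and 2 higher in DAXX_KO (median log2 change -0.35) and 5 lower and 1 higher in ATRX_KO (-0.50), and scaled by library totals 3 were lower and 2 higher in DAXX_KO. Of all genes tested, 26.6% and 21% were lower and 26.7% and 20.8% higher. By library totals 18.5% of all genes were lower and 36.3% higher in DAXX_KO, and 18.2% lower and 24% higher in ATRX_KO. With etoposide 3 of the 7 markers were lower and 3 higher in DAXX_KO, and 3 lower and 1 higher in ATRX_KO. In that condition 25.2% of all genes were lower and 27.9% higher in DAXX_KO, and 22.9% lower and 23% higher in ATRX_KO. Of the astrocyte and oligodendrocyte markers, 2 had enough counts to be tested in the ATRX series. Both were lower in ATRX_KO under control conditions (median -1.92). By library totals 1 of these 2 was lower, and with etoposide 1 was lower (median -1.69). In the DAXX series 1 was tested. It did not pass in DAXX_KO under control conditions (0.09), where it was higher by library totals (0.27), and it was higher with etoposide (0.41). Of 2 neuron markers tested, 1 was higher in each knockout under control conditions (medians 0.825 in DAXX_KO and 0.472 in ATRX_KO). With etoposide 1 was higher in DAXX_KO and 0 in ATRX_KO. The 1 epithelial marker tested was lower in ATRX_KO under control conditions (-2.43) and with etoposide (-2.11). In DAXX_KO it passed in neither condition. The part of these markers in the GADD45 values was not tested. The astrocyte marker GFAP was at 3 counts or fewer in 23 libraries, and CD3E of leukocytes and CDH5 of endothelium were so in 24. MBP of oligodendrocytes (4.48 to 22.7 CPM) and SNAP25 of neurons (2.55 to 20.5 CPM) were above that in all 24. OLIG2 of oligodendrocytes was at 3 counts or fewer in 10 libraries, RBFOX3 of neurons in 1, PTPRC of leukocytes in 8, and EPCAM and CDH1 of epithelium in 8 and 14, so that each was above that in other libraries, at up to 3.02 CPM. Replicates of a group differed by 2.16 to 17.1 times the variance that counting gives, over 24 pairs. The study states in general that its experiments used biological replicates, while the labels of these libraries name no cultures, and p-values measure the spread between these libraries. In bulk RNA, fewer cells that express a gene and less RNA per cell cannot be told apart.

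All comparisons were made with edgeR's quasi-likelihood test, and adjusted p is by the Benjamini-Hochberg method over all genes tested, with a threshold of 0.05 on the false discovery rate (FDR). Many genes passed in every comparison, and the counts of members have to be read against that. In DAXX_KO against WT under control conditions 3 of the 3 tested members passed, where 53.4% of all genes tested passed, 26.7% higher and 26.6% lower. With etoposide it was 2 of 3, where 53% passed, 27.9% higher and 25.2% lower. The response to etoposide passed for 3 of 3 in WT cells of the DAXX series, where 60.2% of all genes passed (29.6% higher, 30.6% lower), and for 3 of 3 in DAXX_KO, where 54.5% passed (26.8% higher, 27.8% lower). For ATRX_KO against WT 3 of 3 members passed under control conditions, where 41.8% of all genes passed (20.8% higher, 21% lower), and 2 of 3 with etoposide, where 45.9% passed (23% higher, 22.9% lower). The response passed for 3 of 3 in WT cells of that series, where 61.5% passed (31.7% higher, 29.8% lower), and for 3 of 3 in ATRX_KO, where 49.5% passed (24.3% higher, 25.2% lower). The interaction, which is the response in the knockout minus the response in WT, passed for 2 of 3 members in DAXX_KO, where 14.2% of all genes passed (8.38% higher, 5.79% lower), and for 1 of 3 in ATRX_KO, where 16% passed (8.36% higher, 7.64% lower).

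**Figure D1:**
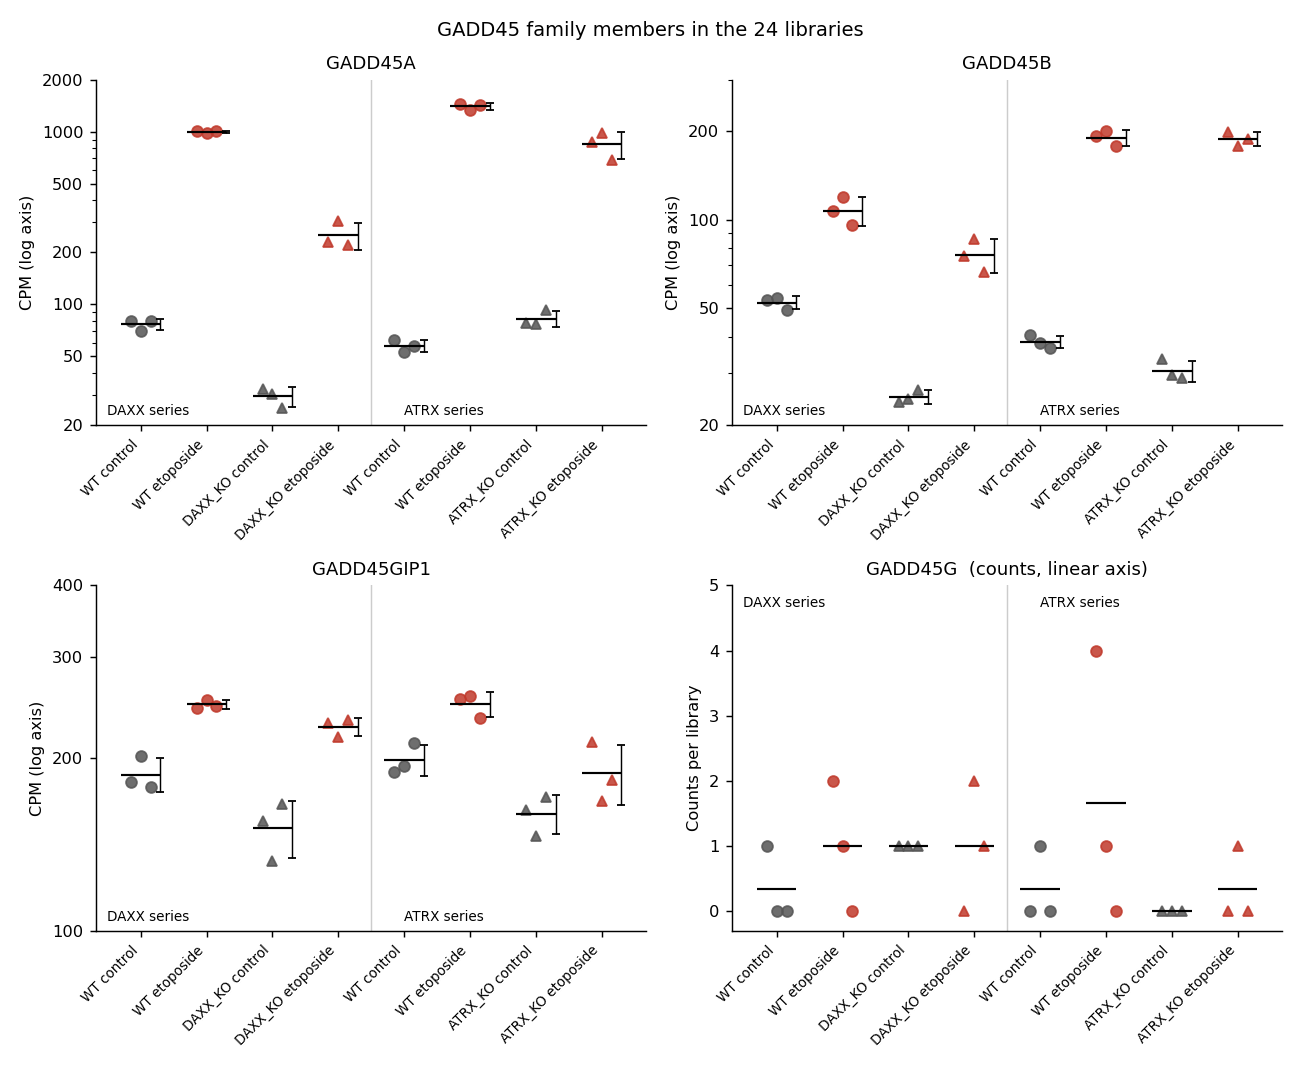
Level of each family member in every library, in CPM on a log axis for GADD45A, GADD45B and GADD45GIP1 and as raw counts on a linear axis for GADD45G. Circles are WT and triangles knockout libraries, red marks etoposide, bars give the mean and, in the CPM panels, whiskers the SD of 3 libraries. With etoposide GADD45A lies between 982.3 and 1440.5 CPM in WT libraries and between 219.3 and 301.9 CPM in DAXX_KO, while GADD45G never exceeds 4 counts.

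GADD45A (ENSG00000116717) lies on the plus strand of chromosome 1 of GRCh37, from 68150884 to 68154017, in 4 exons. A search for the p53 consensus, taken as a pair of adjacent decamers with no spacer and at most 1 mismatch over 20 bases, covered 1000 bases before to 3000 bases after each gene's start. It found 1 match in GADD45A, in intron 3 at chr1:68152458-68152477, which begins 1574 bases after the annotated start. Such a match was present in 120 of 16070 windows of tested genes (0.747%). No match was found in the windows of GADD45B, GADD45G and GADD45GIP1. The match is printed in capitals with 20 bases on each side (plus strand, chr1:68152438-68152497), because GADD45A is the member with the largest response:
GADD45A intron 3: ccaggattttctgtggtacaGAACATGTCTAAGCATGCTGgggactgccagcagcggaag
The study's primers for p53 binding by ChIP-qPCR at GADD45A flank the same site. Both lie in intron 3, at chr1:68152410-68152431 and chr1:68152532-68152552, and their amplicon of 143 bases contains the match:
forward primer: TTTCAGCCGAGATGTGCTAGTT
reverse primer: GCAGTGCAGATGTAGGTAGGG
A sequence match is a description and says nothing of binding in these cells. ChIP-seq and ATAC-seq of the study were not analysed here.

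**Figure D2:**
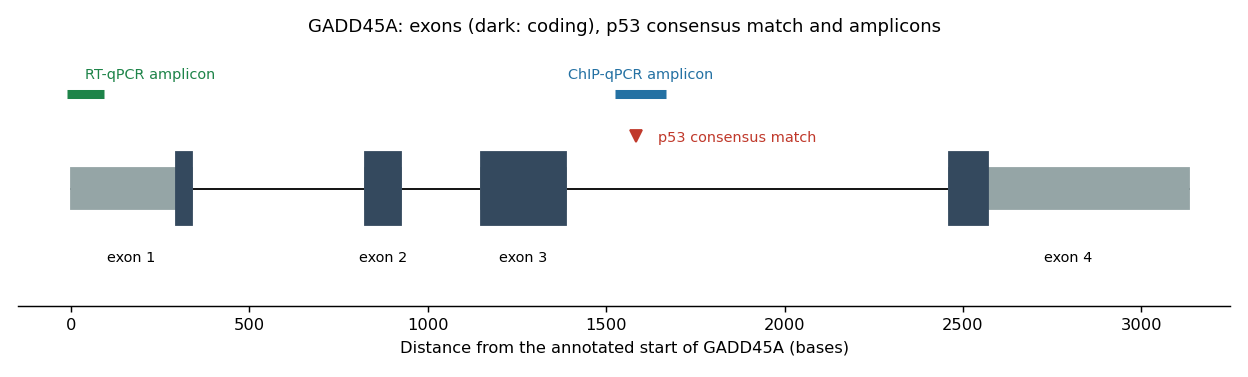
Map of GADD45A drawn to scale by distance in bases from its annotated start, with coding sequence dark, untranslated exon sequence grey and introns as a line. The p53 consensus match sits 1574 bases after the start in intron 3, inside the ChIP-qPCR amplicon, and the RT-qPCR amplicon of the study lies at exon 1.

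GADD45A rose with etoposide in every line, by 8.57- to 24.4-fold, and its level with etoposide was lower in both knockouts. Without etoposide the knockouts differed in direction, being lower in DAXX_KO and higher in ATRX_KO. In the DAXX series its level in WT control libraries was 79.5, 70.3 and 80.2 CPM. With etoposide the WT libraries were at 1012, 982.3 and 1005 CPM. The groups lay far apart, and the 3 treated WT libraries differed little among themselves, at 999.6 ± 15.3 CPM (SD, n = 3).

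In DAXX_KO, GADD45A was at 32.5, 30.3 and 25.03 CPM under control conditions, lower than every WT control library. With etoposide it was at 230.4, 301.9 and 219.3 CPM, above every control library and below every treated WT library. DAXX_KO was lower than WT under control conditions (log2 fold change -1.39, SE 0.12, edgeR adjusted p = 7.84e-09) and more so with etoposide (log2 fold change -1.995, SE 0.10, edgeR adjusted p = 6.00e-12). The rise was 13.03-fold in WT (log2 3.70, SE 0.11, edgeR adjusted p = 6.27e-16) and 8.57-fold in DAXX_KO (log2 3.10, SE 0.12, edgeR adjusted p = 3.56e-14). The interaction was -0.61 (95% interval -0.92 to -0.29, edgeR adjusted p = 0.0109). The reduced level with etoposide is therefore the sum of a lower control level and a smaller rise, of which the control level is the larger share on the log2 scale.

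In the ATRX series GADD45A was at 61.7, 53.1 and 57.5 CPM in WT control libraries and at 77.9, 77.1 and 92.2 CPM in ATRX_KO control libraries. The groups did not overlap, and ATRX_KO was higher by 0.52 on the log2 scale (SE 0.12, edgeR adjusted p = 0.00154). With etoposide the order turned. WT libraries reached 1440.5, 1331 and 1435 CPM, and ATRX_KO libraries 870.4, 977.5 and 683.3 CPM, which was lower (log2 fold change -0.73, SE 0.11, edgeR adjusted p = 3.12e-05). The spread among treated ATRX_KO libraries was wide, at 843.7 ± 149 CPM (SD, n = 3), but every one of them was below every treated WT library. GADD45A rose 24.4-fold in WT (log2 4.61, SE 0.13) and 10.2-fold in ATRX_KO (log2 3.35, SE 0.12). The interaction was -1.25 (95% interval -1.59 to -0.92, edgeR adjusted p = 6.97e-05).

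The GADD45A response was among the larger ones of all genes. In WT cells, 98.5% of the genes tested had a smaller absolute log2 change, in both series. By the study's rule a gene is less responsive when it passed an FDR of 0.05 as higher with etoposide in WT and its interaction was negative with an unadjusted p below 0.05. GADD45A met this rule in both knockouts, as did 1256 genes in DAXX_KO (27.8% of the 4512 genes that rose in WT, 8.24% of all genes tested) and 1884 in ATRX_KO (36.3% of 5191, 11.5% of all genes tested). These counts come from edgeR and are not those of the study, which used DESeq2 and reported fewer genes in each knockout. The opposite rule, with an interaction above 0, was met by 281 genes in DAXX_KO (6.23% of the genes that rose in WT, 1.84% of all genes tested) and 97 in ATRX_KO (1.87%, and 0.593% of all genes tested). GADD45B was among these in both knockouts. With an FDR of 0.05 for the interaction too, the less responsive set held 4.49% and 6.73% of all genes tested in DAXX_KO and ATRX_KO, with GADD45A in both. The more responsive set then held 0.833% and 0.202%, with GADD45B in that of DAXX_KO and not in that of ATRX_KO, and the difference between its interactions did not pass (0.23, 95% interval -0.16 to 0.62, edgeR adjusted p = 0.588).

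**Figure D3:**
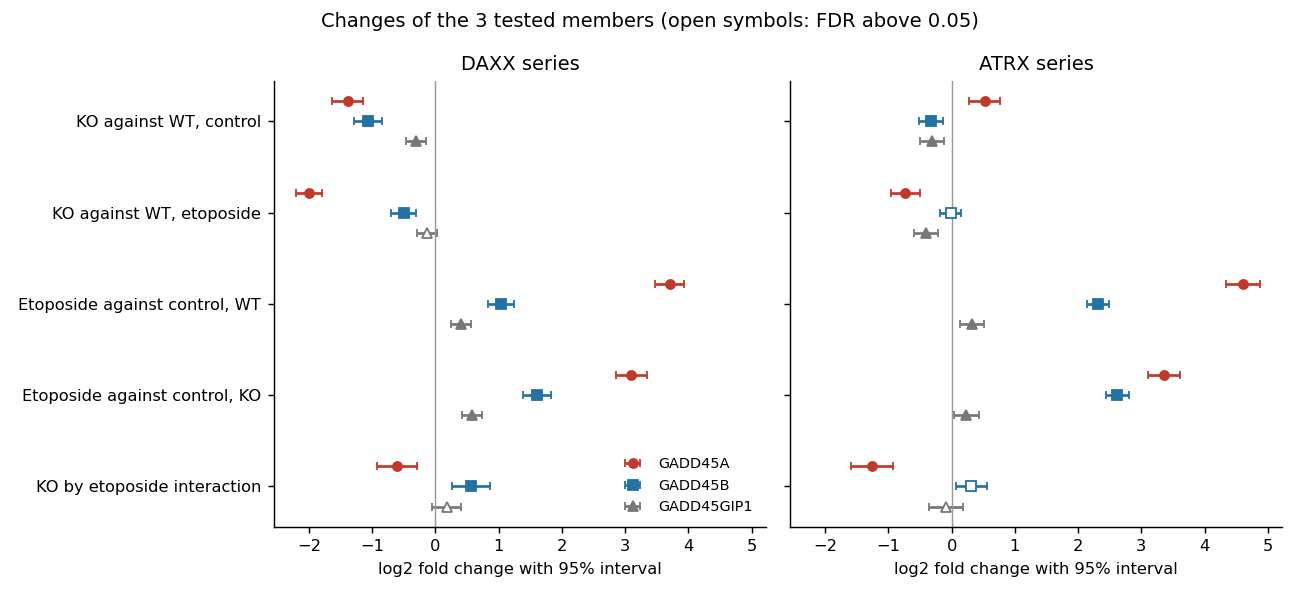
Log2 fold change of the 3 tested members in the 5 comparisons of each series, with 95% intervals from the edgeR fit. Filled symbols passed an FDR of 0.05 and open symbols did not. The interaction is below 0 for GADD45A in both series and above 0 for GADD45B, where it passed in the DAXX series only.

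GADD45B (ENSG00000099860) lies on the plus strand of chromosome 19 of GRCh37, from 2476120 to 2478257. The 250 bases before its start and those before the start of GADD45G are printed from the RefSeq promoter table (GRCh38.p14), because GADD45B rose with etoposide and GADD45G was hardly detected. The capitals mark CCAAT (or ATTGG on the other strand), TATAAA (or TTTATA) and CACGTG, which is the same on both strands, and none of the marked motifs overlap each other.
GADD45B, chr19:2475877-2476126, plus strand: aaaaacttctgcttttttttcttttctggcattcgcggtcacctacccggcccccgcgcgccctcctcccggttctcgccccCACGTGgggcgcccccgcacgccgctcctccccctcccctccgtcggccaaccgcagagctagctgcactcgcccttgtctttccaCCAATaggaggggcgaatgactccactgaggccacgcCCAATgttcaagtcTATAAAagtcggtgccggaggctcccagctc
GADD45G, chr9:89604762-89605011, plus strand: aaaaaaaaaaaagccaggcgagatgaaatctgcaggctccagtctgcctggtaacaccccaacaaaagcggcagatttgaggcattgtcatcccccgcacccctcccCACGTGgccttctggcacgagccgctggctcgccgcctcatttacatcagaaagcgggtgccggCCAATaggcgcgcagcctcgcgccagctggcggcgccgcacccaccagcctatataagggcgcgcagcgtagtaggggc
GADD45B has 2 matches to CCAAT, 1 to TATAAA and 1 to CACGTG, and GADD45G has 1 match to CCAAT, none to TATAAA and 1 to CACGTG. Of 35116 promoters of the same length in the table, 32% hold CCAAT, 10.7% TATAAA and 6.34% CACGTG. GADD45GIP1 has 1 match to TATAAA and none to the others, and GADD45A has no entry in the table. No match says only that these letters are not in this window.

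GADD45B was lower in DAXX_KO than in WT in both conditions, rose with etoposide in every line, and rose more in DAXX_KO than in WT, which is the opposite of GADD45A. In the DAXX series it was at 53.2, 54.2 and 49.1 CPM in WT control libraries and 107.4, 119.3 and 95.6 CPM with etoposide. DAXX_KO libraries were at 23.9, 24.5 and 26.4 CPM under control conditions and at 75.2, 86.1 and 66.3 CPM with etoposide. No library of one group reached the range of another, and the treated DAXX_KO libraries lay between the WT control and the treated WT libraries. The difference between DAXX_KO and WT was -1.07 on the log2 scale under control conditions (SE 0.11, edgeR adjusted p = 1.06e-07) and -0.50 with etoposide (SE 0.09, edgeR adjusted p = 1.66e-04). GADD45B rose 2.06-fold in WT (log2 1.04, SE 0.10) and 3.04-fold in DAXX_KO (log2 1.61, SE 0.11), with an interaction of 0.56 (95% interval 0.26 to 0.87, edgeR adjusted p = 0.0121).

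In the ATRX series GADD45B stood at 40.4, 38.1 and 36.7 CPM in WT control libraries and at 33.5, 29.5 and 28.8 CPM in ATRX_KO. ATRX_KO was lower (log2 fold change -0.33, SE 0.09, edgeR adjusted p = 0.00576). With etoposide the groups overlapped, at 192.5, 201.1 and 177.9 CPM in WT and 198.7, 178.5 and 187.9 CPM in ATRX_KO. This difference was -0.02 on the log2 scale and did not pass (95% interval -0.18 to 0.15, edgeR adjusted p = 0.88), which bounds a difference of the treated levels but does not show that they were equal. GADD45B rose 4.96-fold in WT (log2 2.31, SE 0.08) and 6.15-fold in ATRX_KO (log2 2.62, SE 0.09). The interaction of 0.31 (95% interval 0.07 to 0.56, unadjusted p = 0.0159) did not pass after adjustment with edgeR (adjusted p = 0.0797), and it passed with DESeq2 at 0.33 (adjusted p = 0.0407).

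GADD45G (ENSG00000130222), on the plus strand of chromosome 9 of GRCh37 from 92219927 to 92221470, was at the limit of detection in U87-T cells. Over the 24 libraries it had 17 counts in all, and 12 libraries had 0. In the DAXX series the counts were 1, 0 and 0 in WT control, 2, 1 and 0 in WT with etoposide, 1, 1 and 1 in DAXX_KO control, and 0, 2 and 1 in DAXX_KO with etoposide. In the ATRX series they were 0, 1 and 0 in WT control, 4, 1 and 0 in WT with etoposide, 0 in all 3 ATRX_KO control libraries, and 0, 1 and 0 in ATRX_KO with etoposide. The count of 4 was the only one above 3, the limit that a count of 0 allows, which corresponds to 0.217 to 0.405 CPM per library and covers counting error only. A change with etoposide or with either knockout was not detectable at this depth, no fold is given, and the paralogs that rose with etoposide in these cells were GADD45A and GADD45B.

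GADD45GIP1 (ENSG00000179271) lies on the minus strand of chromosome 19 of GRCh37, from 13063933 to 13068037. The sources used here do not say that counting used strand, so reads from overlapping genes on opposite strands cannot be told apart, and its values carry this limit. GADD45GIP1 was lower in both knockouts under control conditions and rose with etoposide by 1.18- to 1.498-fold, which is small beside GADD45A and GADD45B.

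In the DAXX series GADD45GIP1 was at 181.5, 201.9 and 178.0 CPM in WT control libraries and at 155.3, 132.5 and 166.1 CPM in DAXX_KO. The groups did not overlap, and the difference was -0.31 on the log2 scale (SE 0.08, edgeR adjusted p = 0.00236). Scaled by library totals alone it was -0.12 and did not pass (edgeR adjusted p = 0.186). With etoposide WT libraries were at 244.8, 252.8 and 246.7 CPM and DAXX_KO libraries at 230.1, 217.3 and 232.9 CPM. The treated groups did not overlap either, but the difference of -0.13 did not pass (95% interval -0.29 to 0.03, edgeR adjusted p = 0.158). GADD45GIP1 rose 1.33-fold in WT (log2 0.41, edgeR adjusted p = 1.21e-04) and 1.498-fold in DAXX_KO (log2 0.58, edgeR adjusted p = 2.62e-06), and the interaction of 0.18 did not pass (95% interval -0.05 to 0.40, edgeR adjusted p = 0.314).

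In the ATRX series it was at 188.9, 193.4 and 212.2 CPM in WT control libraries and at 162.4, 146.3 and 171.1 CPM in ATRX_KO, a difference of -0.31 (SE 0.09, edgeR adjusted p = 0.0108). Without replicate 3 of the WT control libraries the difference was -0.26 (adjusted p = 0.0541), and without replicate 2 of the ATRX_KO control libraries it was -0.25 (adjusted p = 0.0535). With etoposide it was at 253.6, 256.8 and 234.5 CPM in WT and at 213.0, 168.4 and 183.4 CPM in ATRX_KO, which was lower (log2 fold change -0.40, SE 0.09, edgeR adjusted p = 0.00151). The response was 1.25-fold in WT (log2 0.33, edgeR adjusted p = 0.00466). In ATRX_KO it was 1.18-fold (log2 0.23, edgeR adjusted p = 0.0396), and there control and treated libraries overlapped. That call was lost in 6 of 12 fits that left out 1 library, namely replicates 1 and 2 of the WT control, replicates 1 and 2 of the ATRX_KO control and replicates 1 and 3 of ATRX_KO with etoposide, with values from 0.13 to 0.25 in these fits. The interaction was -0.09 and did not pass (95% interval -0.36 to 0.18, edgeR adjusted p = 0.681).

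The large subunit of the mitochondrial ribosome, of which the GADD45GIP1 product is a component, was lower in both knockouts in more of its genes than all genes were. Of 49 genes tested from a list of its subunit genes and OXA1L, a membrane insertase, 29 were lower and 1 higher in DAXX_KO under control conditions, with a median of -0.40, where 26.6% of all genes tested were lower. In ATRX_KO 28 were lower and 1 higher, with a median of -0.41, where 21% of all genes were lower. The median of all genes was 0.02 in both comparisons. MRPL38 was lower in both (log2 fold changes -1.52 and -1.26) and MRPL39 in ATRX_KO (log2 fold change -1.48), while MRPL41 was higher by 0.99 in DAXX_KO and MRPL20 by 0.96 in ATRX_KO. With etoposide 26 were lower and 3 higher in DAXX_KO (25.2% of all genes lower), and 32 lower and 1 higher in ATRX_KO (22.9%). Scaled by library totals, 23 were lower and 2 higher in DAXX_KO and 25 lower and 1 higher in ATRX_KO under control conditions. On that scale 18.5% and 18.2% of all genes were lower and 36.3% and 24% higher. The response to etoposide had no common direction in this list. In WT of the DAXX series 17 were higher and 13 lower, and in WT of the ATRX series 18 and 15. Of all genes tested, 29.6% and 31.7% were higher in these WT responses and 30.6% and 29.8% lower. In DAXX_KO 19 of the list were higher and 9 lower, where 26.8% of all genes were higher and 27.8% lower. In ATRX_KO 9 were higher and 14 lower, where 24.3% of all genes were higher and 25.2% lower. MRPL49 rose by 2.02 and 1.72 in the WT cells of the DAXX and ATRX series and MRPL47 fell (log2 fold changes -1.29 and -1.14).

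The order of the 8 groups differed between members. On the scale of all 24 libraries, GADD45A was highest in WT with etoposide of the ATRX series at 1366 CPM, followed by WT with etoposide of the DAXX series at 1007 CPM, ATRX_KO with etoposide at 837.6 CPM and DAXX_KO with etoposide at 253.8 CPM. The control groups followed at 81.3 CPM in ATRX_KO, 78.1 and 56.8 CPM in WT of the DAXX and ATRX series, and 29.8 CPM in DAXX_KO. Treated WT of the DAXX series was above treated ATRX_KO by 0.27 on the log2 scale (SE 0.11), with libraries that did not overlap (988.9 to 1021.1 against 678.4 to 970.1 CPM), and this just missed the threshold of 0.05 (edgeR adjusted p = 0.0518). ATRX_KO control and WT control of the DAXX series were 0.06 apart, which did not pass (edgeR adjusted p = 0.736), and the other 5 neighbouring pairs passed. For GADD45B the highest groups were ATRX_KO and WT with etoposide of the ATRX series, at 187 and 185.5 CPM, a difference that did not pass (edgeR adjusted p = 0.93). WT and DAXX_KO with etoposide of the DAXX series followed at 108.2 and 76.8 CPM, and DAXX_KO control was again the lowest at 25.4 CPM, below ATRX_KO control at 30.2 CPM by a log2 difference of 0.25 (SE 0.10) that just missed the threshold (edgeR adjusted p = 0.0526). For GADD45GIP1 the range was narrow, from 249.9 CPM in treated WT of the DAXX series to 153.9 CPM in DAXX_KO control, and 5 of its 7 neighbouring pairs did not pass.

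The effects of the 2 knockouts on GADD45A and GADD45B differed from each other. In a model of all 24 libraries, the DAXX_KO effect minus the ATRX_KO effect under control conditions was -1.91 for GADD45A (edgeR adjusted p = 4.41e-09) and -0.73 for GADD45B (edgeR adjusted p = 1.88e-04), where 34.1% of all genes passed. With etoposide it was -1.28 for GADD45A (edgeR adjusted p = 4.60e-07) and -0.51 for GADD45B (edgeR adjusted p = 0.00231), where 34.5% passed. For GADD45GIP1 neither passed, at 0.01 (95% interval -0.24 to 0.26) and 0.25 (95% interval 0.00 to 0.50). Of the 3 tested members, 0 passed for the difference of the interactions in edgeR or DESeq2, where 3% of all genes passed in edgeR. GADD45A was there at 0.63 (95% interval 0.14 to 1.12), which had an unadjusted edgeR p of 0.0145, the only one of the 3 below 0.05, and an edgeR adjusted p = 0.16, and it passed when genes of low count were kept in the fit (0.68, edgeR adjusted p = 0.00417).

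These differences between the series have to be read beside those between their WT cells. In WT cells, GADD45A was higher in the DAXX series by 0.46 under control conditions (edgeR adjusted p = 0.0131) and lower with etoposide (log2 difference -0.44, edgeR adjusted p = 0.00724). GADD45B was higher by 0.48 (edgeR adjusted p = 0.00122) and lower with etoposide (log2 difference -0.78, edgeR adjusted p = 1.25e-06). So 2 of 3 members passed in each condition, where 13.2% and 15.9% of all genes did. The WT response to etoposide was smaller in the DAXX series for GADD45A (log2 difference -0.90, edgeR adjusted p = 0.00308) and for GADD45B (log2 difference -1.26, edgeR adjusted p = 2.24e-06), 2 of 3 members where 3.15% of all genes passed. Counts of genes passing between the WT cells varied with the libraries used, and the 526 genes behind this share became 279 to 707 with 1 library left out, as the 2206 for control levels became 1106 to 2447 and the 2646 for treated levels 1712 to 2925. The lowest counts came without control replicate 3 (279 and 1106) and treated replicate 2 (1712) of WT of the DAXX series. GADD45GIP1 passed in none of these 3 comparisons, with adjusted p from 0.764 to 0.818. The control difference of GADD45A was lost in edgeR without replicate 1 (0.42, adjusted p = 0.0569) or 3 (0.43, adjusted p = 0.0606) of the DAXX series, or replicate 2 of the ATRX series (0.40, adjusted p = 0.0674). What differed between the series besides the knockout cannot be told apart from the knockouts in comparisons across them.

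The unequal movement of GADD45A and GADD45B can also be seen inside each library, where no scaling enters. The ratio of GADD45A to GADD45B counts, a measure chosen after the values had been seen, was 1.47 ± 0.17 (SD, n = 3) in WT control and 9.39 ± 1.14 in treated WT libraries of the DAXX series, and 1.18 ± 0.21 and 3.29 ± 0.22 in DAXX_KO. In the ATRX series it was 1.5 ± 0.09 and 7.39 ± 0.73 in WT, and 2.71 ± 0.44 and 4.50 ± 0.93 in ATRX_KO. The ratio rose with etoposide in every line, with no overlap between control and treated libraries, and the treated knockout libraries lay below the treated WT libraries of their series. Counts were not divided by length, so the ratio compares groups and not the levels of the 2 genes.

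As a frame for the p53 response, a list of 22 well-known p53 targets without GADD45A was read beside the family. All 22 rose with etoposide in WT and knockout cells of both series, where 24.3% to 31.7% of all genes rose. The median log2 change was 2.54 in WT against 2.01 in DAXX_KO. For the ATRX series these medians were 2.78 and 1.89. CDKN1A, which encodes p21, rose by 5.24 in WT and 4.77 in DAXX_KO, and in the ATRX series by 5.25 and 3.70. MDM2, the ubiquitin ligase that restrains p53, rose by 4.05, 3.39, 4.20 and 3.17 in the same order. The interaction was lower for 14 targets and higher for 1 in DAXX_KO, where 5.79% of all genes were lower, and lower for 17 and higher for 0 in ATRX_KO, where 7.64% were lower. The exception in DAXX_KO was AEN, an exonuclease gene, at 0.59. Medians of the interaction were -0.68 and -0.95, beside -0.61 and -1.25 for GADD45A and 0.56 and 0.31 for GADD45B. Under control conditions the list was split, with 7 higher and 6 lower in DAXX_KO and 8 higher and 4 lower in ATRX_KO, where 26.7% and 20.8% of all genes were higher and 26.6% and 21% lower. In DAXX_KO control cells, where GADD45A was lower, the higher targets included BBC3 (1.47), which encodes the proapoptotic protein PUMA, RRM2B (1.05), a ribonucleotide reductase subunit, and CDKN1A (0.49). The lower ones included AEN (-0.89), PLK2 (-0.78), a kinase of the polo family, and FDXR (-0.69), a mitochondrial reductase.

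**Figure D4:**
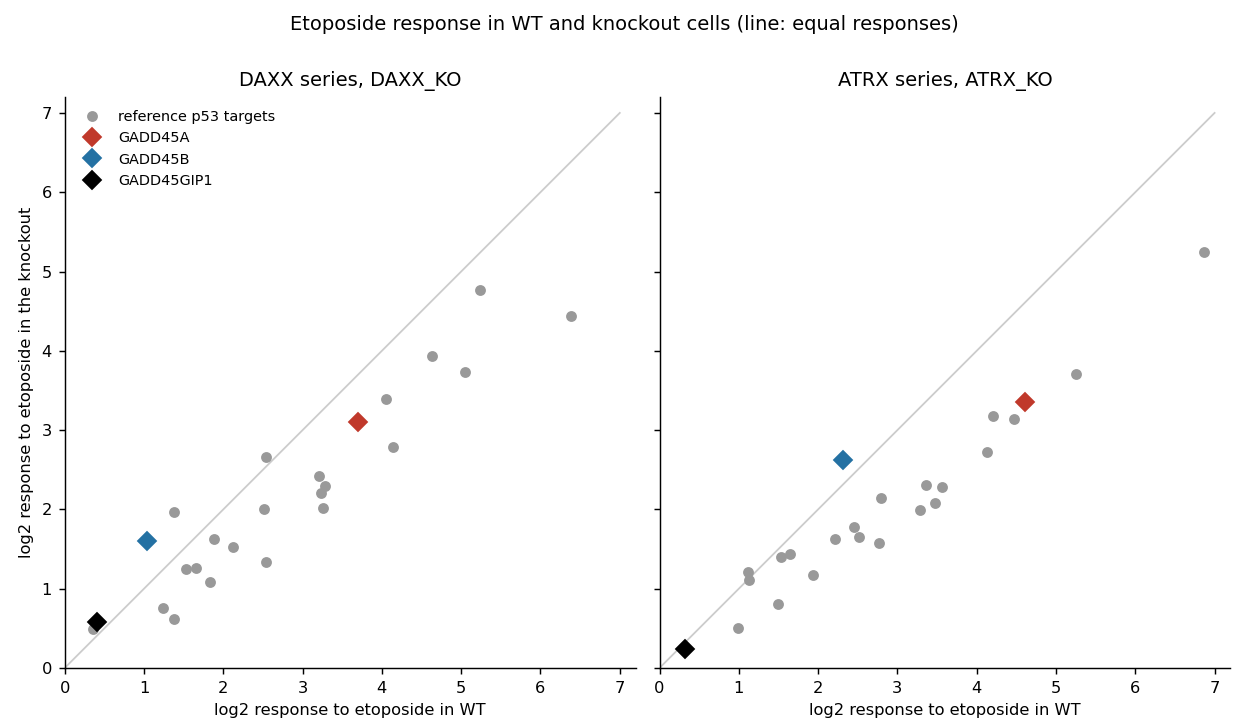
Log2 response to etoposide in the knockout against that in WT of the same series, for 22 reference p53 targets (grey) and the 3 tested members, with a line of equal responses. GADD45A lies below the line in both panels (3.70 and 3.10, 4.61 and 3.35), GADD45B above it (1.04 and 1.61, 2.31 and 2.62), and most reference targets lie below.

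Other genes that carry the growth arrest and DNA damage name, though not paralogs, mostly rose with etoposide too. Of the 3 tested, 3 rose in WT of both series and in DAXX_KO, and 2 in ATRX_KO, where 29.6%, 31.7%, 26.8% and 24.3% of all genes rose. By library totals 3 rose in ATRX_KO too, where 28% of all genes rose. DDIT3, which encodes the stress factor CHOP, rose by 4.78 and 4.35 in WT and DAXX_KO and by 4.91 and 3.57 in WT and ATRX_KO, with interactions of -0.44 and -1.33 that passed. PPP1R15A, a phosphatase subunit that reverses the integrated stress response, rose by 1.64 and 2.26, and by 2.67 and 2.07. Its interaction was 0.62 in DAXX_KO, which passed, and -0.60 in ATRX_KO, which did not. DDIT4, an inhibitor of mTORC1, rose by 1.55 and 0.52 in the DAXX series and by 1.14 in WT of the ATRX series. In ATRX_KO its change of 0.38 did not pass (edgeR adjusted p = 0.0732), and its interactions of -1.04 and -0.76 passed. DDIT4L was not tested.

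Genes for the partners of GADD45 proteins mostly fell with etoposide. Of 11 partners, 7 fell and 2 rose in WT of the DAXX series and 7 and 2 in DAXX_KO, and 8 fell and 2 rose in WT of the ATRX series and 8 and 2 in ATRX_KO. Over all genes tested, 30.6%, 27.8%, 29.8% and 25.2% fell in these 4 responses. MAP3K4, the kinase that GADD45 proteins activate, fell with log2 changes of -1.06 and -1.03 in WT and DAXX_KO and of -1.19 and -1.13 in WT and ATRX_KO, and neither knockout differed from WT in a comparison that passed. For CDK1 these changes were -3.70 and -3.26, and -3.04 and -2.28. For CCNB1, which encodes cyclin B1, they were -3.02 and -2.57, and -2.73 and -3.66, so that its interaction was 0.44 in DAXX_KO and -0.93 in ATRX_KO, both of which passed. AURKA, a mitotic kinase, had changes between -2.63 and -2.31 in the 4 responses. The partners that rose were CDKN1A and TDG, a DNA glycosylase, at 1.08 and 0.89, and 1.71 and 0.98. PCNA fell in DAXX_KO (log2 fold change -0.81) and ATRX_KO (log2 fold change -0.56) and did not pass in WT, and with etoposide it was below WT in DAXX_KO (log2 fold change -1.34) and in ATRX_KO (log2 fold change -0.91). Under control conditions 2 of the 11 partners were higher and 6 lower in DAXX_KO (median -0.30), and 2 and 3 in ATRX_KO. Of all genes 26.7% and 20.8% were higher and 26.6% and 21% lower. By library totals these counts were 3 and 4, and 3 and 1. On that scale 36.3% and 24% of all genes were higher and 18.5% and 18.2% lower. With etoposide 2 were higher and 3 lower in DAXX_KO, and 5 and 4 in ATRX_KO. There 27.9% and 23% of all genes were higher and 25.2% and 22.9% lower. MAPK14, the p38 alpha kinase, was higher in both knockouts under control conditions by 0.51 and 0.33. MAP2K7, a kinase upstream of JNK, passed in the ATRX series only, where it fell in WT (log2 fold change -0.64) and in ATRX_KO (log2 fold change -0.26) with etoposide. NPM1, a nucleolar chaperone, and ING1, a chromatin adaptor, were lower in DAXX_KO control cells (log2 fold changes -1.13 and -0.89).

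The p38 and JNK cascade list held 22 genes tested in the DAXX series, and 1 more was tested for ATRX, 23 in all. Under control conditions 6 were higher and 5 lower in DAXX_KO, and 8 higher and 6 lower in ATRX_KO, where 26.7% and 20.8% of all genes were higher and 26.6% and 21% lower. Scaled by library totals, 10 were higher and 5 lower in DAXX_KO, where 36.3% of all genes were higher and 18.5% lower. The list's median then moved from 0.07 to 0.25 while that of all genes moved by 0.185. MAP2K6, the p38 kinase kinase, was the lowest in both, at -3.26 and -5.75, and DUSP10, a phosphatase of p38 and JNK, was lower at -1.26 and -1.19. The phosphatase genes DUSP8 (2.04 and 2.15) and DUSP16 (1.47 and 2.46) were higher. With etoposide 12 fell and 5 rose in WT of the DAXX series, and 14 fell and 3 rose in WT of the ATRX series, where 30.6% and 29.8% of all genes fell. JUN, a transcription factor phosphorylated by JNK, fell in all 4 responses and fell less in the knockouts, with interactions of 0.62 and 0.65 that passed. In DAXX_KO against WT with etoposide 10 were higher and 5 lower, and in ATRX_KO 12 and 5, where 27.9% and 23% of all genes were higher and 25.2% and 22.9% lower. Across the list, 2 interactions were higher and 0 lower in DAXX_KO, and 4 higher and 1 lower in ATRX_KO, where 8.38% and 8.36% of all genes were higher and 5.79% and 7.64% lower. In DAXX_KO these counts were 1 and 1 when scaled by library totals, where 5.2% of all genes were higher and 8.91% lower.

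Of 21 genes for transcription factors known to act on GADD45 genes, 20 were tested in each series. Under control conditions 6 were higher and 4 lower in DAXX_KO, and 5 higher and 2 lower in ATRX_KO, where 26.7% and 20.8% of all genes were higher and 26.6% and 21% lower. Scaled by library totals, 10 were higher and 3 lower in DAXX_KO, where 36.3% of all genes were higher and 18.5% lower. ATF4, the factor of the integrated stress response that activates GADD45A and DDIT3, was lower in DAXX_KO in each condition (log2 fold change -1.23 in both). In ATRX_KO it was at -0.05 under control conditions, which did not pass, and lower with etoposide (log2 fold change -0.83). ATF4 rose with etoposide by 1.61 and 1.61 in WT and DAXX_KO, and by 1.85 and 1.06 in WT and ATRX_KO. FOXO1 was higher in DAXX_KO and ATRX_KO control cells by 3.70 and 2.92. EGR1 was lower in DAXX_KO (log2 fold change -0.56) and higher in ATRX_KO (2.30). SMAD3, of TGF-beta signalling, was lower in both (log2 fold changes -0.61 and -0.43) and fell with etoposide in WT (log2 fold changes -1.63 and -1.78). NFKB1 was higher in both by 0.94 and 0.72. The part of any of these factors in the GADD45 values was not tested. With etoposide, 7 were higher and 7 lower in DAXX_KO against WT, and 9 and 4 in ATRX_KO, where the shares over all genes were as for the kinase list. By library totals 12 were higher and 4 lower in ATRX_KO, where 28.6% of all genes were higher and 18.9% lower.

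A list of 15 genes of the G2 and M phases, in which GADD45A protein acts as a checkpoint factor, moved strongly with etoposide. In WT of the DAXX series 15 fell, with a median of -3.11, and in DAXX_KO 14 fell (-2.57). In WT of the ATRX series 14 fell (-2.73) and in ATRX_KO 15 fell (-2.57). Over all genes tested, 30.6%, 27.8%, 29.8% and 25.2% fell in these 4 responses. PLK1, a mitotic kinase, had log2 changes of -4.77 in WT and -4.07 in DAXX_KO, and of -4.21 in WT and -4.39 in ATRX_KO. Under control conditions 9 were lower and 0 higher in DAXX_KO, with a median of -0.41, and 10 were lower and 0 higher in ATRX_KO, with a median of -0.26, where 26.6% and 21% of all genes were lower. Scaled by library totals, 8 were lower and 3 higher in DAXX_KO and 6 lower and 0 higher in ATRX_KO. On that scale 18.5% and 18.2% of all genes were lower and 36.3% and 24% higher. The share of cells in each phase was not measured in these libraries, so a change in phase and a change in expression within a phase cannot be told apart.

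GADD45 proteins have also been linked to active DNA demethylation, and 7 genes of that process were read. TET2 was higher in DAXX_KO control cells by 0.92, and SMUG1, a DNA glycosylase, was higher in both knockouts by 0.39 and 0.30. TET3 was lower in ATRX_KO control cells (log2 fold change -0.66), a call that was lost when scaled by library totals. With etoposide 3 rose and 2 fell in WT of the DAXX series, and 3 rose and 1 fell in WT of the ATRX series, where 29.6% and 31.7% of all genes rose and 30.6% and 29.8% fell. In DAXX_KO and in ATRX_KO 3 rose and 0 fell, where 26.8% and 24.3% of all genes rose and 27.8% and 25.2% fell. The interaction was higher for 2 and lower for 0 in DAXX_KO, where 8.38% of all genes were higher and 5.79% lower. In ATRX_KO it was higher for 1 and lower for 1, where 8.36% and 7.64% were. By library totals 2 rose in DAXX_KO, where 22.2% of all genes rose on that scale. The interaction was then higher for 1 gene there, where 5.2% of all genes were higher. TET1 passed in no comparison. The counts under control conditions were 2 higher and 2 lower in DAXX_KO and 1 higher and 1 lower in ATRX_KO, of 7 genes, where 26.7% and 20.8% of all genes were higher and 26.6% and 21% lower. By library totals they were 2 higher and 1 lower in DAXX_KO and 2 higher and 0 lower in ATRX_KO. On that scale 36.3% and 24% of all genes were higher and 18.5% and 18.2% lower.

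Genes beside GADD45A on chromosome 1 were more often lower than higher in DAXX_KO under control conditions, the direction of GADD45A itself. The counts depended on the scaling, and the median of 60 neighbours was below that of all genes on each scale. It was -0.22 against 0.02, and -0.04 against 0.201 by library totals. Among the 30 tested genes on each side, between 59762310 and 78483648 on GRCh37, the median log2 change in DAXX_KO under control conditions was -0.22, with 25 lower and 6 higher, where 26.6% of all genes were lower and 26.7% higher. Of the nearest 20, 9 were lower and 3 higher. GADD45A at -1.39 was below all but 6 of these 60 genes, and below all of the nearest 20. With etoposide the median was -0.18, with 22 lower and 13 higher, where 25.2% of all genes were lower and 27.9% higher, and GADD45A at -1.995 was again below all but 6. Of the nearest 20, 5 were then lower and 5 higher, with a median of -0.03, and GADD45A was below all of them. Scaled by library totals, an alternative chosen after seeing the data, the median of the 60 under control conditions was -0.04, with 17 lower and 12 higher, where the median of all genes was 0.201 and 18.5% were lower and 36.3% higher. Of the nearest 20, 5 were then lower and 5 higher, and GADD45A at -1.205 was below all of these and below all but 6 of the 60. With etoposide the median of the 60 was -0.10 on that scale, with 18 lower and 13 higher. That of all genes was 0.0848, and 21.6% of them were lower and 31.5% higher. The part of this neighbourhood in the GADD45A values was not tested. In ATRX_KO the median was -0.11 under control conditions, with 22 lower and 12 higher, where 21% of all genes were lower and 20.8% higher. With etoposide it was 0.03, with 13 lower and 13 higher, where 22.9% of all genes were lower and 23% higher. There 9 of 60 neighbours were below GADD45A. For GADD45B at -1.07 in DAXX_KO control cells, the median of its 60 neighbours was -0.06 and 2 were below it. For GADD45GIP1 the medians were near 0 in both knockouts, and 19 and 18 of its 60 neighbours were below it, which is within their range. In response to etoposide in WT cells, GADD45A was above all 60 neighbours in both series, whose medians were -0.39 and -0.32.

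**Figure D5:**
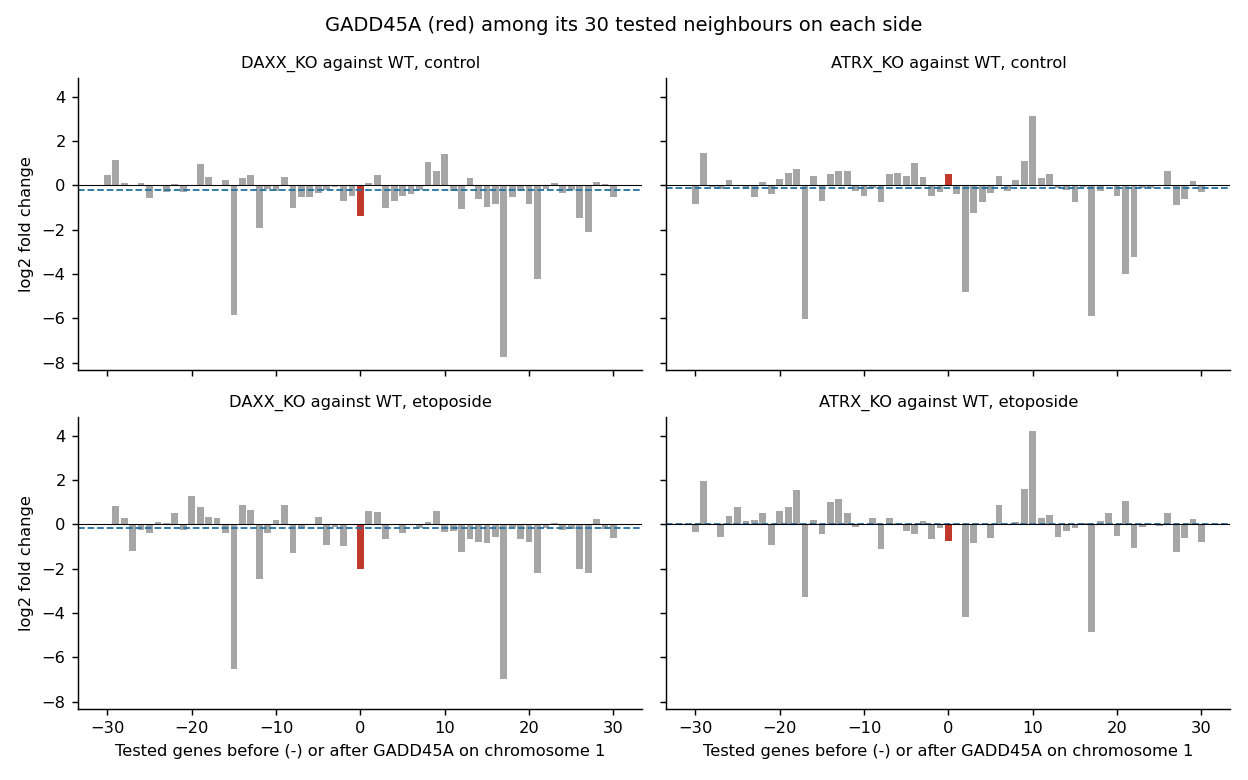
Log2 fold change of knockout against WT for GADD45A (red) and its 30 tested neighbours on each side (grey), in order along chromosome 1, with the neighbours' median as a dashed line. In DAXX_KO, GADD45A stands at -1.39 and -1.995 where the medians are -0.22 and -0.18, and in ATRX_KO at 0.52 and -0.73 where they are -0.11 and 0.03.

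The genes whose pattern was most like each member were named over the 8 group means of log2 CPM, among 9177 genes with at least 10 CPM on average. With only 8 points that share the response to etoposide and the same libraries, high correlations are common, and 451 genes had a Pearson r above 0.9 with GADD45A, 185 with GADD45B and 160 with GADD45GIP1. The 5 genes most like GADD45A were CCDC174, GOSR1, RPAP1, DUSP11 and ZMAT2, with r from 0.990 to 0.995. Those most like GADD45B were GNPTG, ZNF655, SLAMF7, VIPAS39 and SGK1 (0.965 to 0.992), and those most like GADD45GIP1 were CINP, BCKDHA, C1orf50, SCAMP3 and NFIL3 (0.972 to 0.983). Between members r was 0.953 for GADD45A and GADD45B, 0.758 for GADD45A and GADD45GIP1, and 0.707 for GADD45B and GADD45GIP1.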

How the data were processed

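RNA-seq counts of 24 libraries of U87-T cells were used. The authors aligned 75-base single-end QuantSeq reads with STAR to hg19 and made estimated counts per gene with RSEM (version 1.2.3 in the submitters' processing notes, another in the paper) on Ensembl GRCh37. The deposited expected counts are whole numbers, without normalization. Symbols and positions came from GENCODE release 44 on GRCh37, which matched 55501 gene IDs with 98.78% of the counts.

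The analysis used R 4.3.3 and edgeR 4.0.16. TMM factors were 0.9386 to 1.096. filterByExpr (minimum count 10, minimum total 15) left 15247 genes in the DAXX series, 16371 in the ATRX series and 16674 over all libraries. The 12 libraries of a series, or all 24, were fitted in a quasi-likelihood model of group means, with the FDR threshold at 0.05. 95% intervals are model intervals. The interaction test was run on simulated data of 15175 genes for the DAXX series and 16196 for the ATRX series. It recovered 54 of 100 genes changed by 1 on the log2 scale and 83 of 100 changed by 2 in the DAXX series. In the ATRX series it recovered 58 and 69 of 100. False calls were 13 and 10. All groups were simulated at the WT control level, and only these genes were changed, in the treated knockout alone. Error rates where many genes change, as in the real data, were therefore not tested.

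Groups came from sample titles. Replicate numbers were not used as pairs, since deviations of same-numbered libraries correlated at -0.209 to 0.0511 within a series. The members and gene lists were chosen with earlier results of these data known. Named genes were the members, the fixed partners of GADD45 proteins, and from each list up to 2 called genes at each end with others whose role the text describes, chosen after their values were seen. Some samples of the study's other assays were not used here, and some genes are not reported here. Alternatives were DESeq2 1.42.0, RLE factors, library totals, other filters, other sets of libraries, a replicate block and leaving out each library. Figures were drawn with matplotlib.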

Additional observations from a re-analysis of the deposited data

Results flagged for a closer look

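These results differ between groups by a test of the difference itself, in edgeR's quasi-likelihood model. The response of GADD45A to etoposide was smaller than in WT in DAXX_KO, with an interaction of -0.6051 on the log2 scale, and in ATRX_KO, with -1.254. For GADD45B the interaction was 0.5638 in DAXX_KO, so that the responses of these paralogs, though not their levels, differed from WT in opposite directions in the same libraries.

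The effect of DAXX_KO differed from that of ATRX_KO by -1.908 for GADD45A and -0.7345 for GADD45B under control conditions, and by -1.282 and -0.5054 with etoposide. The response of WT cells in the DAXX series differed from that of WT cells in the ATRX series by -0.8987 for GADD45A and -1.261 for GADD45B. These WT libraries carry no knockout, and what sets the series apart was not tested.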

How the results depend on the processing

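Each of 48 results for the members was recomputed under 6 to 8 other settings and with each library left out. Direction and side of the threshold were kept in 331 of 342 values under other settings and in 759 of 792 fits without 1 library, and 27 values changed sign, each for a difference that did not pass. The changes of GADD45A and GADD45B within a series that passed kept their calls throughout. A replicate block changed no call of a member, with GADD45A at -0.6081 and GADD45B at 0.5582 for the interaction in DAXX_KO (1882 genes called against 2160) and GADD45A at -1.257 in ATRX_KO. Samples share only a replicate number.

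Scaling by library totals moved the median of all genes by 0.185 for DAXX_KO against WT under control conditions, by -0.105 for its response, by -0.111 for its interaction, and by 0.121 and -0.126 for the differences of the knockout effects under control conditions and of the interactions. The share of calls that were higher moved with it from 50.1% to 66.2% for DAXX_KO control, from 59.1% to 36.8% for the DAXX_KO interaction, from 50.1% to 60.2% for ATRX_KO with etoposide, from 49.7% to 62.7% and from 64% to 34.7% for these differences between knockouts, and from 45.1% to 31.3%, 45.4% to 29.3% and 46.8% to 23.6% for the WT response, control level and treated level between series. With library totals GADD45GIP1 was at -0.1211 in DAXX_KO control cells and no longer passed, at -0.04141 for the treated WT level between series, and GADD45B was at 0.08128 for ATRX_KO with etoposide. That difference was 0.01094 in one model of all libraries and -0.05377 to 0.04995 with 1 library left out. GADD45B passed for the ATRX_KO interaction with DESeq2 (0.3332).

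The response of GADD45GIP1 in ATRX_KO no longer passed without a filter on low counts (0.1983) or with only the compared groups (0.2476), and was 0.1326 to 0.3053 with 1 library left out. Its difference in ATRX_KO control cells was -0.3582 to -0.2511 in such fits. Its difference between the knockout effects under control conditions was -0.0005743 with DESeq2, -2.78e-05 with RLE factors, -0.02728 without a filter, and -0.06895 to 0.09021 with 1 library left out, in all of which it did not pass. With etoposide this difference was 0.1769 to 0.3433, and it passed only without replicate 1 of treated ATRX_KO. For WT control levels between series, GADD45GIP1 was -0.1005 to 0.00645 and GADD45A 0.4002 to 0.5145. The difference of the GADD45A interactions passed without a filter (0.6833).

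With the interaction at an FDR of 0.05, the less responsive set had 684 genes for DAXX_KO and 1101 for ATRX_KO, with GADD45A in both. The difference of the interactions was called for 776 genes with DESeq2 and 752 without a filter, against 500. With 1 library left out, 279 to 707 genes were called for the WT response between series, 1106 to 2447 for WT control levels and 1712 to 2925 for treated WT levels. The libraries that moved these by over 1.5 times were, in WT of the DAXX series, control replicates 1 (346, WT response) and 3 (279, WT response, and 1106, control levels) and treated replicate 2 (342, WT response, and 1712, treated levels), and in WT of the ATRX series control replicate 3 (1373, control levels). The causes of these changes were not tested. GADD45G, with at most 4 counts, is limited by depth.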
